A study of Homo sapiens with 18 samples.

Results

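The subunits of the transcription factor NF-kB and the genes that feed back on it were followed in the triple-negative breast cancer cell line MDA-MB-231 by sequencing of polyadenylated RNA. The set holds 10 named genes of the 62703 in the files. It comprises the subunit genes RELA, REL, NFKB1, RELB and NFKB2, the inhibitor genes NFKBIA, TNFAIP3 and TNIP1, the IkB family gene NFKBIZ, and BIRC3. All 10 passed the filter on low counts in every comparison. The 10 distinct libraries fall into 5 groups of 2. In the knockdown experiment, cells were transduced for 24 h with lentivirus carrying 1 short hairpin RNA from the pLKO.1 vector and selected for 72 h with puromycin at 2 ug/ml. The hairpin was a control (Control shRNA) or targeted EZH2 (shEZH2) or E2F1 (shE2F1). Other cells were kept for 72 h with DMSO or with 1 uM GSK126, which blocks the EZH2 methyltransferase, and the labels give no lentivirus or puromycin for these cells. EZH2 is the histone methyltransferase of Polycomb repressive complex 2, and E2F1 drives transcription of cell cycle genes. With 1 hairpin per target, an effect of the hairpin on other transcripts and the loss of its target cannot be told apart. The labels do not say that replicates came from separate cultures, so the p-values measure only the spread between these libraries.

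NF-kB is a family of dimeric transcription factors. In the canonical pathway, receptors for inflammatory cytokines activate the IkB kinase complex, IkB-alpha (NFKBIA) is destroyed, and dimers such as RELA with the p50 product of NFKB1 enter the nucleus. In the noncanonical pathway, the kinase NIK (MAP3K14) drives the processing of the NFKB2 product, which pairs with RELB. Many NF-kB target genes encode brakes of the pathway, among them NFKBIA, the ubiquitin-editing enzyme A20 (TNFAIP3) and its partner ABIN-1 (TNIP1).

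The promoters of the members were read from RefSeq (GRCh38.p14), in windows from 250 bases before to 50 bases after each annotated start. The table held 15 windows of 9 members, and RELB was not among them. The kappa-B consensus, the DNA motif bound by NF-kB dimers, was searched by its letters on both strands. It was found in 10 of the 15 windows and in 8 of the 9 members, against 5.91% of all 35116 windows and 7.09% of all 27305 genes in the table. Neither window of RELA held it. The motif TTTNNCGC, where each N is C or G, is a form of the site bound by E2F factors. It was found in 1 of the 15 windows, that of REL, where it overlaps the kappa-B match, and in 3.31% of all windows. A match is a description of the letters, not of binding. Matches of NFKBIZ and those at another annotated start of NFKB2 are not printed. The windows below are shown because they carry the matches of the genes that the results turn on, with the matches in capitals and 20 bases on each side, in the direction of the gene. They lie at chr6:137867172-137867233 (plus strand) for TNFAIP3, chr11:102317265-102317314 and chr11:102317329-102317378 (plus strand) for BIRC3, chr5:151081047-151081096 (minus strand) for TNIP1, chr4:102501290-102501339 (plus strand) for NFKB1, chr10:102394451-102394529 (plus strand) for NFKB2, chr14:35404801-35404850 (minus strand) for NFKBIA and chr2:60881507-60881557 (plus strand) for REL.
TNFAIP3: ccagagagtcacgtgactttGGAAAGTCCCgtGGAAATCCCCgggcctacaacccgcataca
BIRC3, upstream match: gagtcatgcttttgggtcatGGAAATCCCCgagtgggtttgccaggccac
BIRC3, downstream match: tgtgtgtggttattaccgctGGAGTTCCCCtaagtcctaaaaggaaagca
TNIP1: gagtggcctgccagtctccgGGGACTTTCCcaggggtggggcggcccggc
NFKB1: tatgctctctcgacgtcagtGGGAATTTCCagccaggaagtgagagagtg
NFKB2: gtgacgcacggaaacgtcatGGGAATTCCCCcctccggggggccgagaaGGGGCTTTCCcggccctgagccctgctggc
NFKBIA: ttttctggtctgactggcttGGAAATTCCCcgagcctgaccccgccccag
REL: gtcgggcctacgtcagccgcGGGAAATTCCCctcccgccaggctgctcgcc

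**Figure D1:**
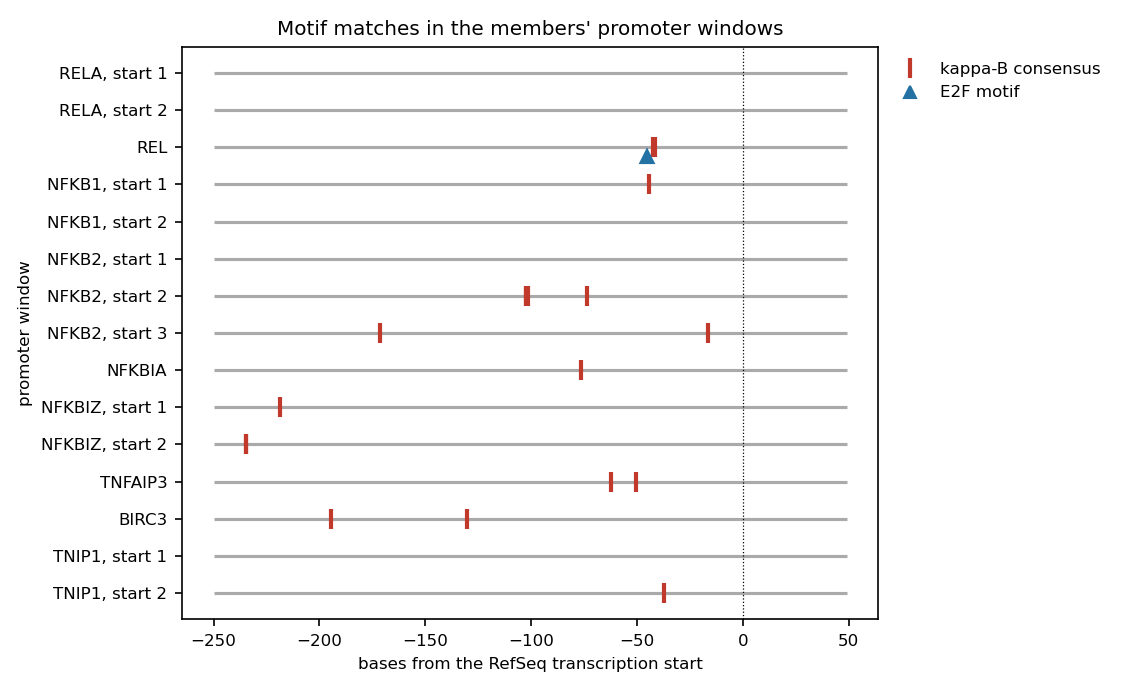
Matches to the kappa-B consensus (bars) and to the E2F motif (triangle) in the 15 promoter windows, by distance in bases from the RefSeq start (dotted line). Matches stand in 10 windows, and the windows of RELA are without one.

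Libraries held 13198932 to 20055550 expected counts, so that a gene with no counts could reach 0.150 to 0.227 CPM (counts scaled to 1000000 per library) by counting error alone. The hairpins were checked first. EZH2 was at 153 and 181 CPM in Control shRNA and at 52.7 and 44.8 CPM in shEZH2, and E2F1 was at 143 and 138 CPM in Control shRNA and at 26.0 and 22.5 CPM in shE2F1. EZH2 in shE2F1 was at 121 and 137 CPM, below both controls. In shEZH2, E2F1 itself stood at 62.5 and 32.3 CPM, so the shEZH2 values below come from cells with less of both transcripts. VIM and CD44, markers of the line, were at 680 CPM or more in every library, while ESR1 stayed at or below 0.216 CPM and PGR had no counts. Of 7 leukocyte markers, CD3E and MS4A1 had no counts, 4 peaked between 0.336 and 1.23 CPM, and CD68, which is not restricted to leukocytes, ran from 28.6 to 138 CPM. Of 4 endothelial markers, KDR ran from 3.56 to 12.3 CPM and the other three stayed at or below 2.65 CPM. ERBB2, EPCAM and CDH1 ran from 46.1 to 90.3, from 10.4 to 33.9 and from 0.180 to 9.83 CPM. The part of these cells or markers in the results was not tested. In bulk RNA, fewer cells of a type and less RNA per cell cannot be told apart.

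Levels of different genes were compared per length, as TPM (transcripts scaled to 1000000 per library). In Control shRNA the order ran from TNIP1 (110 ± 15.1, mean ± SD, n = 2) and RELA (92.3 ± 11) through NFKBIA (61.9 ± 14.4), NFKB2 (48.2 ± 5.59), NFKB1 (34.5 ± 3.37), BIRC3 (21.4 ± 3.15), RELB (18.7 ± 1.12) and NFKBIZ (8.65 ± 2.96) to TNFAIP3 (4.66 ± 1.22) and REL (1.40 ± 0.46). Neighbours within their spread were TNIP1 and RELA, NFKBIA and NFKB2, BIRC3 and RELB, and NFKBIZ and TNFAIP3. Among the 5 subunits, RELA supplied 45.8% and 48.7% of the summed TPM in Control shRNA, and REL 0.585% and 0.841%. In shE2F1, BIRC3 reached 105 ± 5.73 TPM, close to NFKB2 at 111 ± 19.2.

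**Figure D2:**
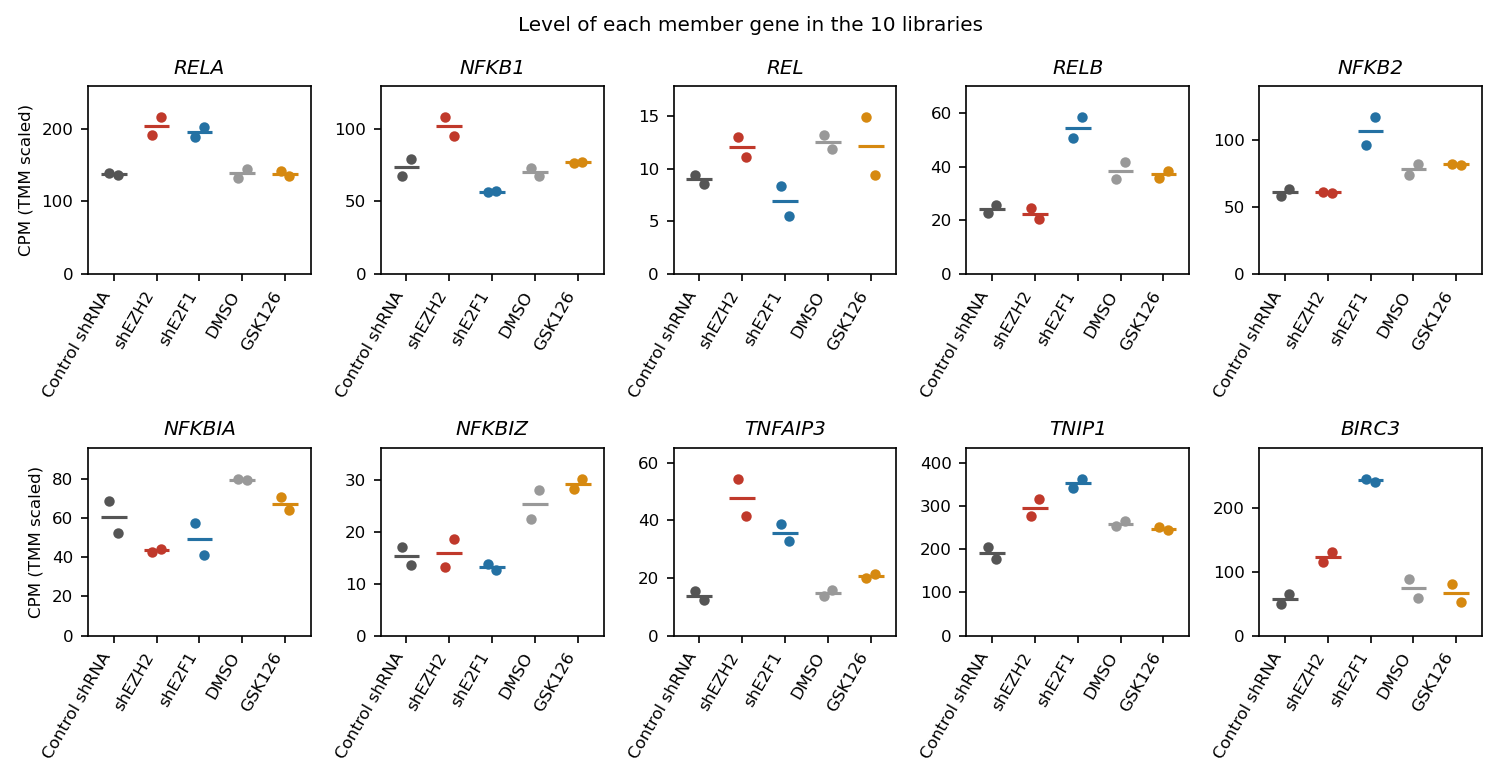
Level of the 10 genes in CPM (scaled by TMM, linear axes from 0) in the 5 groups. Each point is 1 library and each line the mean of 2. BIRC3 stands between 240 and 245 CPM in shE2F1 and between 49.8 and 65.1 CPM in Control shRNA.

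The first comparison asked how the NF-kB genes responded to depletion of EZH2. In shEZH2, 5 of the 10 members were higher than in Control shRNA and none was lower, at an adjusted p below 0.01, the threshold used here for a change. Over all 15373 genes tested, 20.2% rose and 21.5% fell. TNFAIP3 and BIRC3 also exceeded 2-fold, where 7.52% of all genes tested rose by that much. Both shEZH2 libraries lay above both controls in 6 members, a separation seen in 38.8% of all genes tested. The median log2 change of the 10 members was 0.43, against -0.02 over all genes.

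TNFAIP3 (chr6:137867214-137883314, plus strand), the gene of A20, was at 15.3 and 12.2 CPM in Control shRNA and at 54.4 and 41.4 CPM in shEZH2. Both shEZH2 libraries lay above both controls, with a log2 change of 1.78 ± 0.17 (SE) and an adjusted p of 1.28e-05. Of all genes tested, 8.07% had a larger absolute change. BIRC3 (chr11:102317484-102339403, plus strand) encodes cIAP2, a ubiquitin ligase that acts downstream of tumour necrosis factor receptors and restrains NIK. It was at 49.8 and 65.1 CPM in Control shRNA and at 115 and 131 CPM in shEZH2, a log2 change of 1.09 ± 0.13 (adjusted p = 4.34e-05). TNIP1 (chr5:151029945-151093577, minus strand), the partner of A20, was at 206 and 178 CPM against 278 and 316 CPM and rose by 0.61 ± 0.10 (adjusted p = 0.00052).

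Among the subunits, RELA (chr11:65653599-65663090, minus strand), the main transactivating subunit, was at 139 and 137 CPM in Control shRNA and at 192 and 216 CPM in shEZH2. It rose by 0.55 ± 0.09 on the log2 scale (adjusted p = 0.000491). NFKB1 (chr4:102501330-102617302, plus strand), which encodes p105 and p50, was at 67.7 and 79.3 CPM against 108 and 95.4 CPM. Its change of 0.45 ± 0.11 passed the threshold (adjusted p = 0.00442), with both shEZH2 libraries above both controls. RELB (chr19:45001461-45038192, plus strand) and NFKB2 (chr10:102394110-102402524, plus strand), the noncanonical pair, did not pass, with values of -0.12 ± 0.14 and -0.01 ± 0.11. On TPM, which is scaled by length, NFKB2 was at 52.14 and 44.24 in Control shRNA and at 64.49 and 70.61 in shEZH2. RELB was at 19.51 and 17.92 TPM against 24.02 and 17.95 TPM. These TPM differences were not tested. REL (chr2:60881491-60931612, plus strand), the lymphoid-rich subunit c-Rel, was at 9.43 and 8.58 CPM against 13 and 11.1 CPM, at 0.40 ± 0.21 (adjusted p = 0.13).

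NFKBIA (chr14:35401079-35404749, minus strand), the classical inhibitor and an early target, was at 68.7 and 52.6 CPM in Control shRNA and at 42.9 and 44.4 CPM in shEZH2. Both shEZH2 libraries were below both controls, but the log2 difference of -0.49 ± 0.17 missed the threshold (adjusted p = 0.0273). NFKBIZ (chr3:101827991-101861022, plus strand) encodes IkB-zeta, a nuclear member of the IkB family. Its shEZH2 libraries, at 13.3 and 18.7 CPM, enclosed the controls at 17.2 and 13.7 CPM.

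Across the transcriptome, log2 changes in shEZH2 varied with gene GC content. The median log2 change was 0.22 over the 10% of genes poorest in GC and -0.51 over the 10% richest in it. The members span 35.8% GC (BIRC3) and 36.0% (NFKB1) to 64.9% (RELB). With each library corrected for GC content and length, NFKB1 no longer differed past the threshold (0.04, adjusted p = 0.762), BIRC3 was at 0.68 (adjusted p = 0.000286), TNFAIP3 at 1.61 (adjusted p = 2.19e-05), RELA at 0.85 (adjusted p = 3.1e-05) and TNIP1 at 0.99 (adjusted p = 1.38e-05). The call of NFKB1 was also lost with only the 4 libraries compared (0.45, adjusted p = 0.0126), without Control shRNA replicate 1 (0.34, adjusted p = 0.0306) and without shEZH2 replicate 1 (0.36, adjusted p = 0.0339). NFKBIA passed without Control shRNA replicate 2 (-0.66, adjusted p = 0.0082) and with no filter on low counts (-0.50, adjusted p = 0.000215).

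The second comparison asked the same of E2F1 depletion, with the same control libraries, so that a shift in those libraries enters both comparisons. In shE2F1, 6 of the 10 members were higher than in Control shRNA and none was lower, where 13.6% of the 15373 genes tested rose and 16.5% fell. BIRC3, TNFAIP3 and RELB exceeded 2-fold, against 5.6% of all genes tested. Both shE2F1 libraries lay above both controls in 6 members, as they did in 37.5% of all genes tested. The median log2 change of the members was 0.65, and that of all genes was 0.00.

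BIRC3 was at 245 and 240 CPM in shE2F1, above every other library of the series, and its log2 change of 2.07 ± 0.13 (4.20-fold, adjusted p = 1.47e-06) was exceeded by 3.61% of genes. TNFAIP3 was at 38.6 and 32.8 CPM and rose by 1.37 ± 0.17 (adjusted p = 9.11e-05). TNIP1 was at 343 and 364 CPM and rose by 0.87 ± 0.10 (adjusted p = 7.61e-05).

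The noncanonical subunits were also higher. RELB was at 22.6 and 25.6 CPM in Control shRNA and at 50.7 and 58.3 CPM in shE2F1, a log2 change of 1.17 ± 0.13 (adjusted p = 4.86e-05). NFKB2 was at 58.3 and 63.5 CPM against 96.4 and 117 CPM, a change of 0.80 ± 0.11 (adjusted p = 0.000202).

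RELA was at 189 and 203 CPM and rose by 0.50 ± 0.09 (adjusted p = 0.00132). Its call was lost without shE2F1 replicate 1 (0.55, adjusted p = 0.0112) and without shE2F1 replicate 2 (0.45, adjusted p = 0.0297). NFKB1 was at 56.7 and 57.0 CPM, below both controls, and its difference of -0.38 ± 0.11 missed the threshold (adjusted p = 0.0155), although it passed without Control shRNA replicate 1 (-0.49, adjusted p = 0.00599) and with no filter on low counts (-0.36, adjusted p = 0.00767). NFKBIA at -0.31 ± 0.16, NFKBIZ at -0.24 ± 0.18 and REL at -0.38 ± 0.22 did not pass. The correction for GC content and length left the same 6 genes past the threshold.

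**Figure D3:**
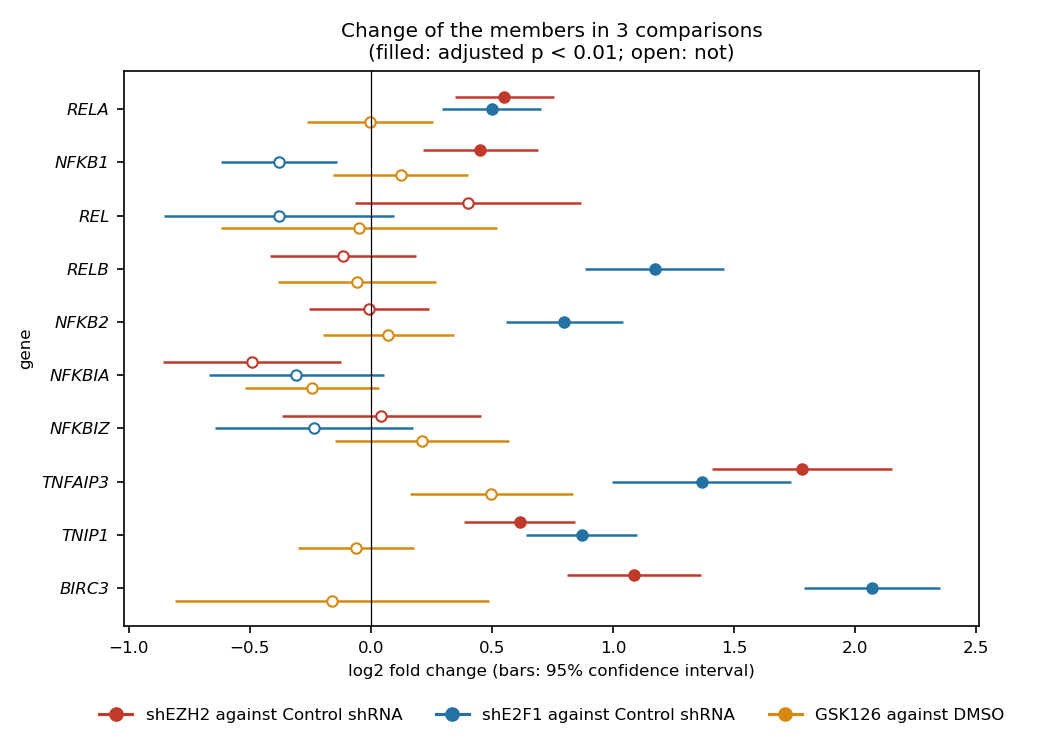
Log2 fold change of each gene in shEZH2 and shE2F1, both against Control shRNA, and in GSK126 against DMSO, with 95% confidence intervals. Filled points passed an adjusted p of 0.01, which holds for 5 genes in shEZH2, 6 in shE2F1 and 0 with GSK126.

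The knockdowns were then compared directly. Of the 10 members, 2 were higher and 3 lower in shEZH2 than in shE2F1, where 23.3% of the 15373 genes tested were higher and 23.2% lower. RELB was lower by more than 2-fold, as were 12.9% of all genes tested, with a log2 difference of -1.29 ± 0.13 (adjusted p = 1.33e-05). NFKB2 differed by -0.81 ± 0.11 (adjusted p = 9.93e-05) and BIRC3 by -0.98 ± 0.12 (adjusted p = 4.94e-05). NFKB1 was higher in shEZH2 by 0.83 ± 0.11 (adjusted p = 7.01e-05). REL was higher by 0.78 ± 0.21 (adjusted p = 0.00891), but this call held in only 4 of 12 other fits. It was lost after correcting for GC and length (0.25, adjusted p = 0.364), with DESeq2 (0.80, adjusted p = 0.0139), with a mean of at least 50 counts (0.75, adjusted p = 0.0118), with all 10 libraries (0.78, adjusted p = 0.0141) and with only the 4 libraries compared (0.77, adjusted p = 0.0102). Leaving out shEZH2 replicate 1 (0.67, adjusted p = 0.0435), shEZH2 replicate 2 (0.90, adjusted p = 0.0131) or shE2F1 replicate 2 (0.51, adjusted p = 0.0952) also ended it. Under the GC and length correction RELB was at -0.73, NFKB2 at -0.44, BIRC3 at -1.45 and NFKB1 at 0.37, and each stayed past the threshold.

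RELA did not pass the threshold between the knockdowns, and TNFAIP3 passed in some fits only. The difference in RELA was 0.05, with a 95% confidence interval from -0.15 to 0.26. That in TNFAIP3 was 0.41, with an interval from 0.07 to 0.76 (adjusted p = 0.0392). TNFAIP3 passed with a replicate block (0.41, adjusted p = 0.00699) and without shEZH2 replicate 2 (0.61, adjusted p = 0.00854). TNIP1 differed by -0.26 ± 0.10 (adjusted p = 0.0506).

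Ratios of counts within a library do not depend on scaling between libraries. Their size depends on transcript lengths, so only their differences between libraries are read. These differences also carry shifts in estimated length. The mean transcript length of NFKB2 ran from 1509 in shEZH2 replicate 2 to 2119 in Control shRNA replicate 2. The ratio of NFKB2 to NFKB1 counts was 0.862 and 0.800 in Control shRNA, 0.572 and 0.636 in shEZH2, and 1.70 and 2.05 in shE2F1. The ratio of RELB to RELA was 0.163 and 0.186 in Control shRNA, 0.128 and 0.0943 in shEZH2, and 0.268 and 0.287 in shE2F1. Both count ratios placed the shEZH2 libraries lowest of all 10. On TPM, which is scaled by length, NFKB2 to NFKB1 overlapped between shEZH2 and Control shRNA. Of the summed subunit TPM, NFKB2 supplied 25.4% and 24% in Control shRNA and 21.1% and 22.2% in shEZH2. NFKB1 supplied 15.6% and 20% against 18.5% and 15.4%. RELB to RELA stayed lower in shEZH2, with RELB at 9.49% and 9.7% against 7.87% and 5.65%. NFKB2 has 62.4% GC and NFKB1 36.0%, and the count ratios carry no correction for it. With the GC and length correction the shEZH2 changes were 0.43 for NFKB2 and 0.04 for NFKB1, so that the direction of their ratio turned, while RELB at 0.42 stayed below RELA at 0.85. In DMSO the ratio of RELB to RELA was already 0.264 and 0.289, and with GSK126 it was 0.252 and 0.282, so the shE2F1 libraries were within the range of the drug experiment.

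**Figure D4:**
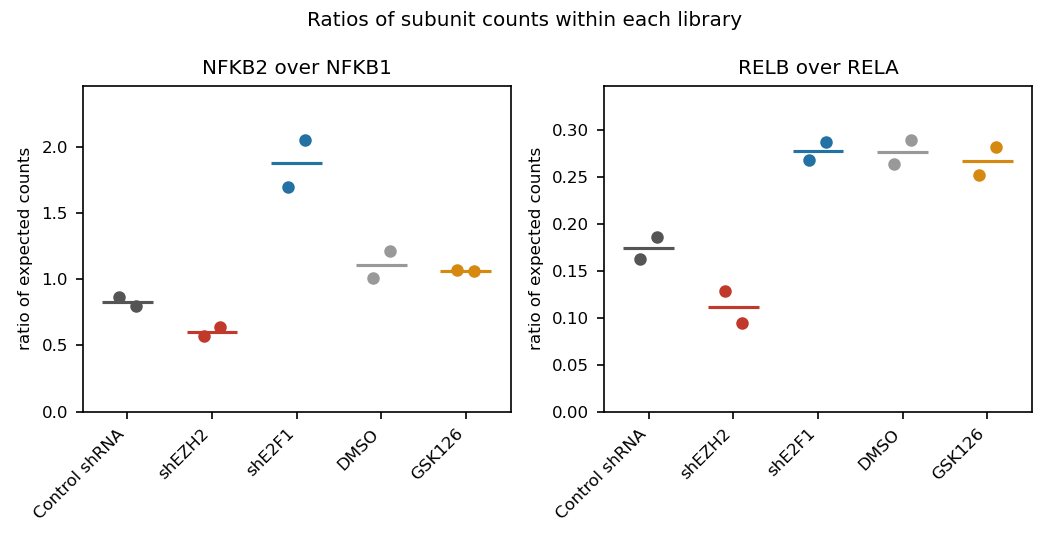
Ratio of expected counts of NFKB2 to NFKB1 (left) and of RELB to RELA (right) within each library, on linear axes from 0. Points are libraries and lines are means of 2. The shEZH2 libraries lie lowest in both panels, with no correction for GC content or transcript length. With the GC and length correction the NFKB2 to NFKB1 direction turns. On TPM that ratio overlaps between shEZH2 and Control shRNA.

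The third comparison asked whether inhibition of the EZH2 enzyme moved these genes. With GSK126, 0 of the 10 members changed against DMSO by edgeR, as did 0% of the 14632 genes tested. At an unadjusted p below 0.05 there were 577 genes (3.94%), of which TNFAIP3 was the 1 member, and DESeq2 called 13 genes changed and none of the members. TNFAIP3 was at 13.7 and 15.7 CPM with DMSO and at 20 and 21.5 CPM with GSK126, without overlap, at a log2 difference of 0.50 ± 0.14 (adjusted p = 1). The 95% confidence interval was 0.16 to 0.84 for TNFAIP3, -0.26 to 0.26 for RELA and -0.81 to 0.49 for BIRC3.

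The same-numbered libraries of DMSO and GSK126 deviated from their group means together (r = 0.766 across 11012 genes, which are not independent), so differences were also taken within a number. TNFAIP3 differed by 0.55 and 0.45 on the log2 scale in replicates 1 and 2, NFKBIA by -0.18 and -0.30, and RELA by 0.09 and -0.10. BIRC3 was at 88.1 and 59.2 CPM with DMSO and at 80.6 and 51.7 CPM with GSK126, a larger gap between numbers than between treatments. With the replicate number as a block, TNFAIP3 (0.50, adjusted p = 0.000306) and NFKBIA (-0.24, adjusted p = 0.000683) passed the threshold, as did 7.96% of the 14632 genes tested. With the block, the 4 libraries leave little to estimate a gene's own spread. The p-values of this fit therefore rest mostly on spread shared across genes. The labels do not say what the numbers share.

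Depletion and inhibition were compared by testing the shEZH2 effect minus the GSK126 effect in a fit of all 10 libraries. The difference was positive past the threshold for 3 of the 10 members, where 9.35% of the 15773 genes tested were. TNFAIP3 differed by 1.30 ± 0.24 (adjusted p = 0.00142), BIRC3 by 1.26 ± 0.30 (adjusted p = 0.00673) and TNIP1 by 0.69 ± 0.15 (adjusted p = 0.00448). RELA differed by 0.57 ± 0.15, with an adjusted p of 0.01 that was not below the threshold. It passed with DESeq2 (0.59, adjusted p = 0.000937), with DESeq2 size factors (0.59, adjusted p = 0.00731), with a mean of at least 50 counts (0.57, adjusted p = 0.00693), with the replicate block (0.56, adjusted p = 0.00217) and with the GC and length correction (0.86, adjusted p = 0.00049). TNFAIP3 kept its call when any single library was left out. BIRC3 was lost without Control shRNA replicate 1 (1.07) or 2 (1.46), shEZH2 replicate 1 (1.34) or 2 (1.15), DMSO replicate 1 (0.93) or GSK126 replicate 2 (0.97), with adjusted p values from 0.0111 to 0.0409. TNIP1 was lost without Control shRNA replicate 2 (0.58), shEZH2 replicate 2 (0.59), DMSO replicate 2 (0.65) or GSK126 replicate 2 (0.67), with adjusted p values from 0.0121 to 0.0278. The lentivirus, puromycin and experiment differ between the arms together with the mode of EZH2 loss and cannot be told apart from it.

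Transduced control cells were set against solvent-treated cells, where virus, selection, solvent and experiment cannot be told apart. By edgeR 0 of the 10 members changed, with 1.76% of the 15773 genes tested changed. At an unadjusted p below 0.05 there were 5 members, against 25.1% of the genes tested. DESeq2 changed 2 members and 5.61% of the 13476 genes it tested. RELB was at 22.6 and 25.6 CPM in Control shRNA and at 35.2 and 41.8 CPM in DMSO (log2 -0.68 ± 0.14, adjusted p = 0.0147). NFKBIZ was at 17.2 and 13.7 CPM against 22.5 and 28.2 CPM (-0.71 ± 0.18, adjusted p = 0.0348). TNIP1 was at 206 and 178 CPM against 254 and 265 CPM (-0.43 ± 0.11, adjusted p = 0.034). In these genes and in REL, NFKB2 and NFKBIA, 6 members in all, each control hairpin library was below each DMSO library, as in 26.5% of the genes tested. Among 9 cytokine targets tested, 4 were lower in Control shRNA, among them IL6, at 3.87 and 3 CPM against 35.5 and 37.0 CPM, and CXCL8, at 4.08 and 9.12 CPM against 60.8 and 46.0 CPM.

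The rest of the pathway was described by 7 lists, chosen with earlier results of these data known. Over all 15373 genes tested, 20.2% rose and 21.5% fell in shEZH2, and 13.6% rose and 16.5% fell in shE2F1. Counts in several lists lie near these shares, and no list was tested as a set. The lists were not refitted with the correction for GC content and length. Of 12 receptors, 7 rose and 3 fell in shEZH2, with a median log2 change of 0.71 against -0.02 over all genes, and 1 rose and 4 fell in shE2F1, with a median of 0.00. IL1R1, the signalling receptor of interleukin-1, was at 6.62 and 4.62 CPM in Control shRNA and at 28.9 and 32.7 CPM in shEZH2 (2.43 ± 0.20, adjusted p = 6.28e-06). TLR2, a receptor for bacterial lipoproteins, rose by 1.99 ± 0.21 in shEZH2 (adjusted p = 2.27e-05) and by 1.29 ± 0.21 in shE2F1 (adjusted p = 0.000579). CD40, a receptor that activates both arms of the pathway, fell by 1.96 in shEZH2 (adjusted p = 3.53e-06), from 39.1 and 36.7 CPM to 11.3 and 8.58 CPM. Of 9 ligands only 5 were tested in the knockdown fit, of which 1 rose in shEZH2, and 1 rose and 2 fell in shE2F1. TNFSF12, the gene of TWEAK, was at 18.2 and 16.9 CPM in Control shRNA and at 2.59 and 2.7 CPM in shE2F1 and fell by 2.74 on the log2 scale (adjusted p = 1.54e-06). TNF stayed at or below 0.527 CPM.

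Among 20 adaptors and ubiquitin ligases, 7 rose and 5 fell in shEZH2, and 5 rose and 4 fell in shE2F1. TRAF1, an adaptor that binds cIAP proteins, was at 13.9 and 15.8 CPM in Control shRNA, at 62.3 and 64.2 CPM in shEZH2 and at 53.8 and 55.5 CPM in shE2F1. It rose by 2.08 ± 0.11 (adjusted p = 7.95e-07) and by 1.88 ± 0.11 (adjusted p = 1.23e-06). The shared control was itself low in TRAF1 against DMSO, where it was at 29.6 and 36.7 CPM (-1.16 ± 0.13, adjusted p = 0.000555). SHARPIN, a subunit of the linear ubiquitin ligase, fell by 1.95 in shEZH2 (adjusted p = 4.06e-06). Of 11 kinase genes, 3 rose and 1 fell in shEZH2 and 1 rose in shE2F1, which was MAP3K14, the gene of NIK. It was at 39.8 and 51.1 CPM in Control shRNA and at 123 and 124 CPM in shE2F1 (1.43 ± 0.12, adjusted p = 8.42e-06). MAP3K14 also rose in shEZH2, to 66.4 and 60.5 CPM (0.47 ± 0.12, adjusted p = 0.00732). IKBKB, the catalytic IKK-beta subunit, rose by 1.03 ± 0.13 in shEZH2 (adjusted p = 6.28e-05). Larger changes among the kinase genes in shEZH2 were a rise of TAB3 by 1.64 (adjusted p = 1.67e-06) and a fall of IKBKE by 1.47 (adjusted p = 1.9e-05).

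Of 13 other inhibitors and deubiquitinases tested, 5 rose and 4 fell in shEZH2, and 6 rose and none fell in shE2F1, with medians of 0.27 and 0.56. CYLD, which removes linear and lysine 63-linked ubiquitin, rose by 1.43 ± 0.09 (adjusted p = 1.4e-06) and by 0.77 ± 0.09 (adjusted p = 5.13e-05). NFKBIB, the gene of IkB-beta, was at 25.5 and 25.8 CPM in Control shRNA and at 61.7 and 66.5 CPM in shE2F1 (1.31 ± 0.11, adjusted p = 5.97e-06). BCL3, a nuclear IkB protein, fell by 2.10 in shEZH2 (adjusted p = 0.000132), from 34.2 and 17.3 CPM to 5.88 and 6.28 CPM.

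Of 16 survival and effector targets tested, 5 rose and 2 fell in shEZH2, and 3 rose and 5 fell in shE2F1. BCL2L1, which encodes the survival protein BCL-XL, fell by 1.58 in shEZH2 (adjusted p = 1.18e-06), while CFLAR, an inhibitor of caspase 8, rose by 1.44 ± 0.10 (adjusted p = 2.18e-06). PLAU, the urokinase gene, fell by 2.99 in shE2F1 (adjusted p = 4.46e-07), from 318 and 307 CPM to 42.4 and 36.6 CPM. Of 9 cytokine targets, 2 rose in shEZH2, and 3 rose and 1 fell in shE2F1. CXCL8, which encodes interleukin-8, was at 4.08 and 9.12 CPM in Control shRNA and at 40.0 and 60.4 CPM in shE2F1 (2.93 ± 0.30, adjusted p = 3.09e-05). The shared control was itself low in CXCL8 against DMSO (-3.03 ± 0.32, adjusted p = 0.000288). The DMSO libraries were at 60.8 and 46.0 CPM, near those of shE2F1.

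With GSK126 the lists gave different counts with and without the block. Without it 0 of their 84 tested genes passed the threshold, although the 8 cytokine targets tested had a median log2 difference of 0.79, against -0.01 over all genes. With the replicate number as a block, a fit of the lists added after the data were seen, 13 rose and 9 fell, against 7.96% of all genes in either direction. The adjusted p values of the blocked fit rest mostly on spread shared across genes, so very small ones do not measure replicate spread of a gene. Of the cytokine targets 5 rose and 1 fell, which was CSF1 (-0.28, adjusted p = 6.03e-09). IL6, the gene of interleukin-6, was at 35.5 and 37.0 CPM with DMSO and at 64.3 and 56.1 CPM with GSK126, at 0.73 without the block (adjusted p = 0.749) and 0.73 with it (adjusted p = 4.63e-11). CXCL8 was at 0.86 without the block (adjusted p = 0.976) and passed with it (adjusted p = 1.89e-15). CXCL1, a neutrophil chemokine gene, was at 1.31 in both fits, with adjusted p values of 0.749 and 0.000376. Of the receptors 4 rose and 2 fell with the block, and of the survival and effector targets 4 rose and 1 fell. Among the adaptors and ubiquitin ligases none rose and 3 fell, and among the kinase genes none rose and 2 fell. No ligand and none of the other inhibitors and deubiquitinases passed.

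**Figure D5:**
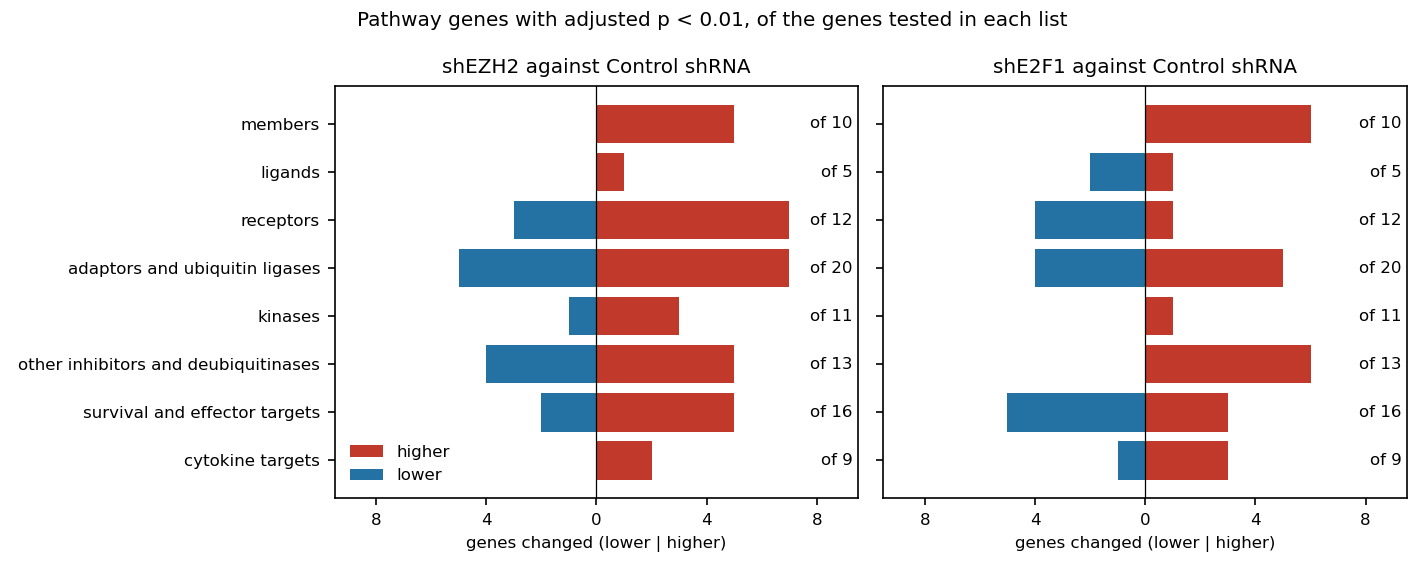
Genes of each list with an adjusted p below 0.01 in shEZH2 (left) and shE2F1 (right) against Control shRNA, with those higher to the right of 0 and those lower to the left. The number tested stands at the right, and among receptors 7 of 12 were higher in shEZH2 and 1 of 12 in shE2F1. Over all genes tested, 20.2% were higher and 21.5% lower in shEZH2, and 13.6% higher and 16.5% lower in shE2F1.

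Genes with the most similar pattern over the 10 libraries, each taken relative to the control group of its experiment, were ARHGEF26 (r = 0.990) and PVT1 (r = 0.985) for TNFAIP3, YIPF5 (r = 0.996) and ZNF320 (r = 0.994) for BIRC3, and SLC25A22 (r = 0.993) and ZNF527 (r = 0.990) for RELB. Libraries of a group share their treatment, and 2.76% to 3.54% of 10770 genes exceeded an r of 0.9 with these members. Among the members, RELB and NFKB2 had an r of 0.980 and RELB and NFKB1 of -0.751.

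Some members overlap other genes. REL shares 5702 exonic bases with a noncoding gene on the same strand, and the uncertainty of its allocated count was 4.46% to 7.25% of the count. NFKBIZ shares 194 exonic bases with NXPE3 on the same strand, which was at 37.7 CPM. On the opposite strand, RELA shares 103 exonic bases with RELA-DT at 2.32 CPM, TNFAIP3 95 bases with WAKMAR2 at 0.242 CPM and BIRC3 126 bases with a noncoding gene at 0.006 CPM.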

How the data were processed

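RNA was extracted with Trizol and mRNA was selected on poly(A) for directional libraries. Per the study's methods and processing notes, STAR alignments to GRCh38 with an Ensembl annotation were quantified by the authors with RSEM. The notes list STAR 2.7.2b and RSEM 1.3.1, and the methods name another STAR version. Whether counting used strand is not given in the sources used here. The deposited files hold expected counts, in which a read that fits several genes is divided between them, and TPM, which the authors' software scaled by effective length and library. Of 18 records, 8 were exact repeats of another and were left out. Gene names and coordinates came from GENCODE 44, where 62625 of 62703 identifiers (99.9%) were found.

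Expected counts were rounded and fitted with edgeR 4.0.16 in R 4.3.3 (filterByExpr, TMM scaling, quasi-likelihood F-test, Benjamini-Hochberg adjustment across the tested genes). A fit held the 6 knockdown libraries, another the 4 drug libraries, and the remaining comparisons used a fit of all 10. All adjusted p-values are from these fits unless an alternative is named. A change required an adjusted p below 0.01. Genes that also changed by more than 2-fold were counted separately, and the study required both conditions for differential expression. CPM were scaled by TMM over all 10 libraries. The members and lists were chosen with earlier results of these data known. Named genes were the 10 members, EZH2 and E2F1, and the 2 genes most similar in pattern to each member called in a knockdown (log2 of CPM plus 0.5, mean of at least 5 CPM). List genes were taken from up to 3 changed genes per list and knockdown. These had the largest change among those with a mean of at least 50 counts, and not all of them are named. IL6, CXCL8 and TRAF1 were named again in the comparison with DMSO after their values were seen. Alternatives were DESeq2 1.42.0, its size factors, other filters, other sets of libraries, a replicate block, a correction by splines (5 degrees of freedom) of GC content and length, other thresholds and leaving out each library. The block was applied to the lists with GSK126 after the data were seen. IL6, CXCL8, CXCL1 and CSF1 were named there, and MAP3K14 in shEZH2, after their values were seen. Scripts were tested on simulated data. Intervals for a count of 0 used 3 counts and cover counting error only. A marker gene of the checks is not reported here.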

Additional observations from a re-analysis of the deposited data

Results flagged for a closer look

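TNFAIP3, BIRC3 and TNIP1 had different responses to the EZH2 hairpin and to GSK126 by the test of the difference itself. The shEZH2 effect minus the GSK126 effect was 1.30 for TNFAIP3, 1.26 for BIRC3 and 0.69 for TNIP1 on the log2 scale. For TNFAIP3 the value ran from 1.09 to 1.48 when single libraries were left out. The call held in 14 of 14 other fits for TNFAIP3, in 8 of 14 for BIRC3 and in 10 of 14 for TNIP1. Lentivirus, puromycin and experiment differ between the arms as well and cannot be told apart from the mode of EZH2 loss. With 2 libraries per group, single libraries that stand apart within a group were not tested for.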

How the results depend on the processing

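All values are log2 differences or counts of genes, and the cause of each shift was not tested except where stated. Of 720 values of the members under the alternatives, 634 kept their direction and side of the threshold, 24 lost and 22 gained the threshold, and 40 turned. Each direction that turned belonged to a member that had not passed the threshold. Levels in TPM, compared without a test, are not among these 720 values. In shEZH2 against Control shRNA, NFKB2 turned to 0.0099 with DESeq2, 0.011 with DESeq2 size factors, 0.0021 with a mean of at least 50 counts and 0.0048 with all 10 libraries in a fit. The correction for GC content and length turned RELB to 0.42, NFKB2 to 0.43, REL to -0.078 and NFKBIZ to -0.070 in that comparison, TNIP1 to 0.053 in shEZH2 against shE2F1, and RELB to 0.49, NFKB2 to 0.36, REL to -0.021 and NFKB1 to -0.11 in the shEZH2 effect minus the GSK126 effect. RELA was at 0.0042 in GSK126 against DMSO with a mean of at least 50 counts. The numbers of libraries were checked for pairing: deviations of same-numbered libraries correlated at 0.766 between DMSO and GSK126 and at 0.027 to 0.186 among the knockdown groups. With the replicate block, 2 members and 1164 genes changed with GSK126 (2 and 1051 with the GC and length correction added), against 0 without it. Of the 84 list genes tested there, 22 changed with the block and 0 without it. In Control shRNA against DMSO, DESeq2 changed 2 members, no filter on low counts 3 and an adjusted p below 0.05 also 3. The replicate block changed 1 member there and moved TNFAIP3 to 0.13. Each experiment had its own block, so that contrast compared fitted levels of replicate 1 alone. It cannot show how pairing affects the difference between these groups. Requiring over 2-fold left 2 members in shEZH2, 3 in shE2F1 and 1 between them. In the shEZH2 effect minus the GSK126 effect, 3 members changed, and 1 to 3 when a library was left out.

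Without 1 library, shEZH2 against Control shRNA ranged from -0.26 to 0.035 for RELB, -0.071 to 0.057 for NFKB2 and -0.22 to 0.26 for NFKBIZ. In shEZH2 against shE2F1 it ranged from -0.023 to 0.14 for RELA and -0.40 to 0.084 for NFKBIA. In GSK126 against DMSO it ranged from -0.048 to 0.050 for RELA, -0.16 to 0.062 for RELB, -0.42 to 0.25 for REL and -0.52 to 0.17 for BIRC3. For the shEZH2 effect minus the GSK126 effect it ranged from -0.19 to 0.086 for RELB, -0.15 to 2e-04 for NFKB2 and -0.43 to 0.062 for NFKBIZ. In Control shRNA against DMSO, it ranged from -0.066 to 0.051 for RELA, -0.052 to 0.17 for NFKB1 and -0.26 to 0.059 for TNFAIP3.

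Over all genes, counts of changed genes moved by over 1.5 times as follows. DESeq2 changed 13 genes with GSK126. In Control shRNA against DMSO it changed 756, no filter gave 1207 and the GC and length correction 682, against 278. The block gave 1176 there, from fitted levels of replicate 1 alone. The block gave 5177 genes for the shEZH2 effect minus the GSK126 effect, against 3308. Leaving out a library gave as few as 2200 in shE2F1 against Control shRNA, 4655 between the knockdowns, 1581 in the difference of effects and 32 in Control shRNA against DMSO, and as many as 45 with GSK126.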
